A study of Sus scrofa with 8 samples.

Results

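Broad H3K4me3 domains were defined in pig embryonic fibroblasts (PEFs) as peaks of at least 5 kb in H3K4me3 replicate 1 that overlapped, by at least 1 bp, a peak of at least 5 kb in H3K4me3 replicate 2. There were 1381 such domains among the 37495 replicate 1 peaks on chromosomes 1 to 18 and X, and they covered 9.60 Mb. The PEFs were primary cells of Large White pigs, taken from fetuses at 35 days and cultured for 24 h with no treatment. ChIP-seq, which recovers and sequences the DNA bound by an antibody's target, was made for H3K4me3, H3K27ac and the insulator protein CTCF, with 2 libraries each. The domains were selected on H3K4me3 width, so their H3K4me3 values are given as a description, whereas the H3K27ac and CTCF libraries and the genome sequence played no part in the choice. The labels name a single input library for the histone marks, so the H3K4me3 and H3K27ac peaks may share a control. For comparison, 6243 shared H3K4me3 peaks of 1 to 3 kb and 2974 of 3 to 5 kb were taken, each within 1 kb of the annotated start of a gene (transcription start site, TSS).

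H3K4me3 is laid down at promoters by the COMPASS family of methyltransferases, which are drawn to unmethylated CpG islands and to initiating RNA polymerase II. Most promoters carry it over a short stretch around the first nucleosomes of a gene. In many cell types a small group of genes carries it far into the gene body, and these genes are often regulators of the cell's identity. H3K27ac marks active promoters and enhancers, and CTCF holds the anchors of chromatin loops.

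The promoter sequences of 4 of the widest domains are shown beside 2 promoters of ordinary width to make visible how far they differ in CpG content, the feature that draws the H3K4 methyltransferases. Each is the 200 bp before the RefSeq TSS on Sscrofa11.1, written 5′ to 3′ along the gene, with every CpG in capitals.
HOXC9, chr5:19212290-19212489, plus strand: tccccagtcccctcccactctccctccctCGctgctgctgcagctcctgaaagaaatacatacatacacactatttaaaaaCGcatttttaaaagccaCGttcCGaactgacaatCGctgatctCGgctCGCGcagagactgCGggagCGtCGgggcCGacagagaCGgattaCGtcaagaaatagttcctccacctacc
PRRX1, chr4:80502690-80502889, minus strand: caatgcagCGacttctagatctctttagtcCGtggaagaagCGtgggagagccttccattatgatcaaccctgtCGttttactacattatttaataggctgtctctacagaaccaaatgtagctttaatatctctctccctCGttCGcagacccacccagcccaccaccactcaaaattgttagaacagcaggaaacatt
GATA3, chr10:63397978-63398177, minus strand: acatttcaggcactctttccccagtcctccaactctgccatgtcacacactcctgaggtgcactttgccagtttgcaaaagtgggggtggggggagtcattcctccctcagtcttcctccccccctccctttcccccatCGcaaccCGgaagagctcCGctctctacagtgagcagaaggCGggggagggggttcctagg
FGF7, chr1:122278706-122278905, minus strand: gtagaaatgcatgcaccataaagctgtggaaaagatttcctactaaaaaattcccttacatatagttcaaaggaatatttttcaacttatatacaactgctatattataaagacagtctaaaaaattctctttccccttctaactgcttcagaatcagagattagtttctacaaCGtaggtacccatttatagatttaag
ZFAND2B, chr15:121242916-121243115, plus strand: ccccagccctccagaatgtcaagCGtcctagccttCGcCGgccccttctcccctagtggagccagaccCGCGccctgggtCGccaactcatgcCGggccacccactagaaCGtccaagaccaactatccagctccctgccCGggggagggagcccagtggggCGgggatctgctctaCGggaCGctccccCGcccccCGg
RCN2, chr7:57040672-57040871, plus strand: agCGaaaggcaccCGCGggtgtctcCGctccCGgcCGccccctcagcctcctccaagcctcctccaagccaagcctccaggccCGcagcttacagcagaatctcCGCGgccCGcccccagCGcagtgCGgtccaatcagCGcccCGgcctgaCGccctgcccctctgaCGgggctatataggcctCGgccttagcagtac
HOXC9 (a homeobox gene of body patterning) had 14 CpGs in this window, as many as ZFAND2B, a gene of protein quality control, and RCN2, which encodes a calcium-binding protein of the endoplasmic reticulum, had 17. PRRX1, a transcription factor of limb and skin mesenchyme, had 6, and GATA3, a zinc finger factor of several lineages, had 4. FGF7, a growth factor that fibroblasts secrete to act on epithelium, had 1 CpG and 31.0% GC. The median over the 1128 protein-coding lead promoters of broad domains was 16, against 17 for 3 to 5 kb peaks, 14 for 1 to 3 kb peaks and 10 for all 19487 protein-coding genes. Broad domains were therefore found both where this 200 bp window was CpG-rich and where it was CpG-poor. The window does not describe the whole domain. CpG islands, as measured below, filled 65.6% of the GATA3 domain, 43.7% of that of HOXC9 and 20.4% of that of PRRX1, but 0.446% of that of FGF7.

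The domains had a median width of 6234 bp in replicate 1 and 6823 bp in replicate 2, with ranges of 5000 to 52180 bp and 5015 to 42257 bp. Of the 1475 replicate 1 peaks of at least 5 kb, 93.6% had a partner of that width, as did 70.4% of the 1955 in replicate 2. The 578 replicate 2 peaks without such a partner had, but for 2, a narrower replicate 1 peak, and the widest of these had a median width of 4381 bp. Replicate 2 gave the wider peak at 75.8% of the domains, and its peaks were 1.06 times as wide at the median. The fold enrichment at the summit, the ratio of signal to control as MACS2 computed it, had a median of 55.3 in replicate 1 and 28.8 in replicate 2, close to the 57.4 and 28.0 of the 3 to 5 kb peaks, and the 1 to 3 kb peaks had 45.9 and 21.9. At the threshold, the ribosomal protein gene RPS15A (5000 and 5349 bp), the co-chaperone gene PTGES3 (5001 and 5596 bp) and the zinc finger gene KLF13 (5005 and 5192 bp) were just inside. Just outside were the deubiquitinase gene USP1 (4998 and 5099 bp), the glutathione synthesis gene GCLC (4998 and 7228 bp) and the RNA-binding protein gene HNRNPUL1 (4996 and 5089 bp). A minimum of 4 kb gave 2664 domains and one of 8 kb gave 256, so the number depends on where the line is drawn.

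Of the 10 widest domains 4 were at HOX clusters, and the others were at transcription factor, growth factor and collagen genes. A single replicate 1 domain over HOXC4, HOXC5, HOXC6, HOXC8 and HOXC9 (chr5:19201378-19253557) measured 52180 bp. Its replicate 2 partner of 23567 bp (chr5:19221149-19244715) held the TSSs of HOXC6 and HOXC8 only. Those of HOXC4, HOXC5 and HOXC9 lay more than 1 kb outside this partner. The HOXA cluster held a domain at HOXA9 and HOXA10 (22398 bp) and a neighbour at HOXA3, HOXA5, HOXA6 and HOXA7 (19435 bp), and 1 replicate 2 peak of 42257 bp spanned both. HOXB5 and HOXB6 shared a domain of 22750 and 33542 bp whose fold enrichment, 18.4 and 16.2, was the lowest among the 10 widest in each replicate. Outside the HOX clusters came EBF3, an early B-cell factor family member (16919 and 29796 bp), FGF7 (14814 and 24158 bp), PRRX1 (18317 and 20437 bp), GATA3 (17522 and 20351 bp), the type I collagen gene COL1A2 (14221 and 23177 bp) and the T-box factor gene TBX2 (17868 and 17528 bp). The width of several of these domains depended on how the caller had divided neighbouring stretches. The HOXA9, HOXA3, HOXB6, EBF3 and FGF7 domains of replicate 1 became 42348, 42348, 42774, 27706 and 23733 bp wide when peaks within 1 kb were joined. The HOXC9 domain of replicate 1 became 63325 bp wide. Only 14 domains reached 15 kb in both replicates.

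**Figure D1:**
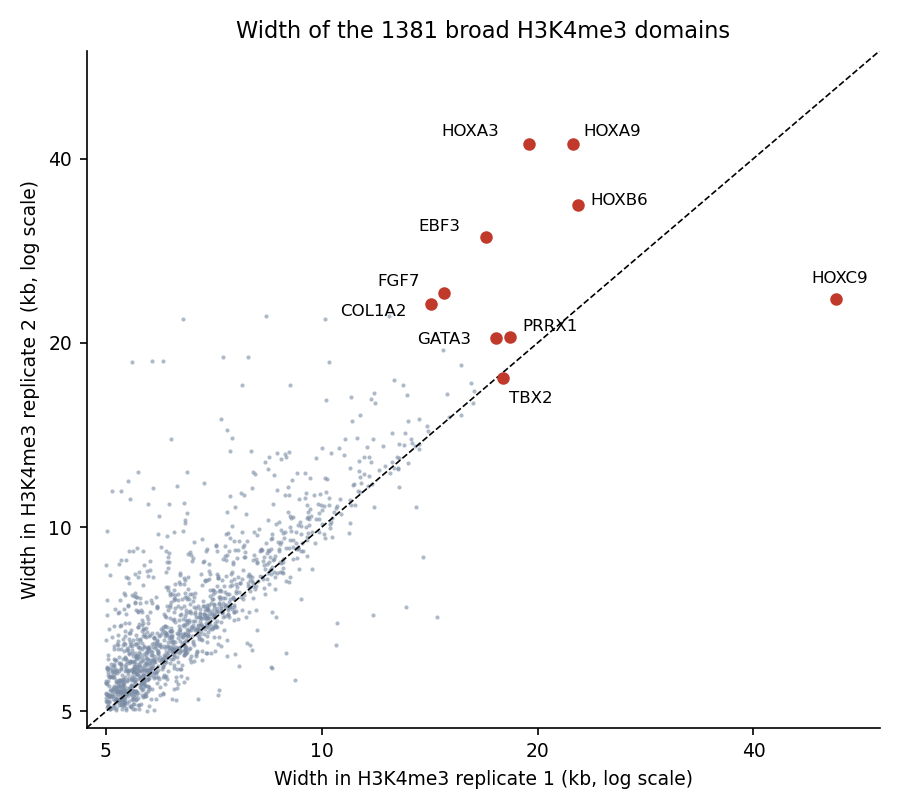
Width of each of the 1381 broad domains in H3K4me3 replicate 1 (x axis, kb, log scale) and replicate 2 (y axis, kb, log scale); the dashed line marks equal widths and red points are the 10 widest by mean width. Most points lie above the line (75.8% were wider in replicate 2), and HOXC9 is the one red point far below it.

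Gene lists were read against 3 backgrounds. A broad domain lay within 1 kb of the TSS of 5.81% of 28077 annotated genes, of 7.11% of 19487 protein-coding genes and of 10.3% of the 13447 protein-coding genes that had any shared H3K4me3 peak at the TSS. Among 13 fibroblast markers 9 had a broad domain, namely COL1A1, COL1A2, COL3A1, PDGFRA, PDGFRB, VIM, DCN, TWIST1 and PRRX1. A shared H3K4me3 peak at the TSS was found for 12, and all 13 had an H3K27ac peak there in both libraries. The shared peaks of THY1, LUM and FN1 were under 5 kb in at least 1 replicate, and SPARC had no shared peak. Among 11 annotated markers of other cell types 0 had a broad domain, 4 had a shared H3K4me3 peak and 1 had H3K27ac in both libraries. The 4 were EPCAM (1695 and 1954 bp) and CDH1 (2031 and 1785 bp) of epithelium, and MYOD1 (943 and 1636 bp) and DES (1049 and 1121 bp) of muscle. The others, including PTPRC (blood), PECAM1 (endothelium), ALB (liver) and KRT5 (epidermis), had no shared peak. The markers thus mostly followed the fibroblast label of the samples.

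Of 40 transcription factors of mesenchyme 28 had a broad domain, or 70.0%, and 73.7% of those with a shared peak at the TSS. TWIST1 and TWIST2, bHLH factors that keep cells mesenchymal, had domains of 8477 and 8943 bp and of 6493 and 10548 bp. PRRX2, the partner of PRRX1, had 8057 and 7925 bp. SNAI1 and SNAI2, repressors of epithelial genes, had 7898 and 8007 bp and 6262 and 6371 bp. The domains of the list had a median width of 8543 bp in replicate 1 and 9120 bp in replicate 2, wider than the medians of all domains. Of the other 12 genes, 10, among them RUNX1, RUNX2, MSX1 and GLI2, had a shared peak that was under 5 kb in at least 1 replicate (3453 and 6364 bp at RUNX2), while OSR1 and ALX4 had no shared peak at the TSS.

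Of 27 annotated matrix and surface genes of fibroblasts 14 had a broad domain (51.9%). COL1A1, the other chain of type I collagen, measured 9538 and 10344 bp, and COL3A1, of type III collagen, 12615 and 17364 bp. COL5A1 measured 8501 and 8378 bp, COL6A3 7043 and 7761 bp, and FBN1, the microfibril protein fibrillin, 5629 and 6813 bp. H3K27ac peaks covered 9 of these 14 domains from end to end in both libraries, against 26.5% of all 1381 domains. Fibronectin (FN1) was counted among the genes without a domain because its broad domain, of 13160 and 16448 bp, began 3674 bp inside the gene from the annotated TSS.

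Response and feedback genes also had many domains. Of 32 immediate early and stress response genes 19 had a broad domain (59.4%). In the AP-1 family FOSL2 had 11277 and 12803 bp, FOSL1 8835 and 8559 bp, JUNB 6426 and 6182 bp, and JUN 5221 and 5586 bp, whereas the shared peaks of FOS (4389 and 5311 bp), FOSB and JUND did not reach 5 kb in both replicates. The growth regulator MYC had 7097 and 6982 bp, and EGR3 had 6439 and 6677 bp. Of 33 annotated signalling inhibitors and tumour suppressors 17 had a domain (51.5%), with medians of 8832 and 10086 bp. SMAD7, which blocks TGF-beta receptors, was the widest at 15616 and 18403 bp. SKI and SKIL, which repress SMAD targets, had 8116 and 6778 bp and 8884 and 13168 bp. The Sprouty genes SPRY1, SPRY2 and SPRY4, feedback inhibitors of receptor tyrosine kinases, had 6816 and 8049, 9259 and 10086, and 12805 and 11626 bp.

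Lower shares were found for genes that nearly all cells use. Chromatin regulators had 11 of 35 (31.4%), including the H3K4 methyltransferase genes KMT2A (5100 and 5401 bp), KMT2C (7139 and 8019 bp), KMT2D (6178 and 6340 bp) and SETD1B (10456 and 10732 bp) and the demethylase genes KDM5B (6655 and 7218 bp) and KDM6A (6309 and 6693 bp). Housekeeping genes had 9 of 29 (31.0%), among them GAPDH (6448 and 6365 bp), ACTB (7548 and 7617 bp), PGK1 (6544 and 7283 bp), TBP (5281 and 6094 bp), YWHAZ (6846 and 8798 bp) and POLR2A (5254 and 5461 bp). Both shares stood above the 7.11% of all protein-coding genes. Of the genes with a shared peak, 34.4% of the chromatin regulators and 32.1% of the housekeeping genes had a domain, against 10.3% of protein-coding genes. Broad domains were thus also found at genes outside the mesenchymal lists. Gene families looked up after these values were seen ranged from 4 of 6 for the IRX homeobox factors and 19 of 76 for cytosolic ribosomal proteins to 15 of 238 for ZNF genes and 2 of 47 for genes named NDUF, mostly of mitochondrial complex I. Regulators of other lineages had 5 of 31 (16.1%), which also stood above the 7.11% of protein-coding genes. Of those with a shared peak 22.7% had a domain, against the 10.3%.

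**Figure D2:**
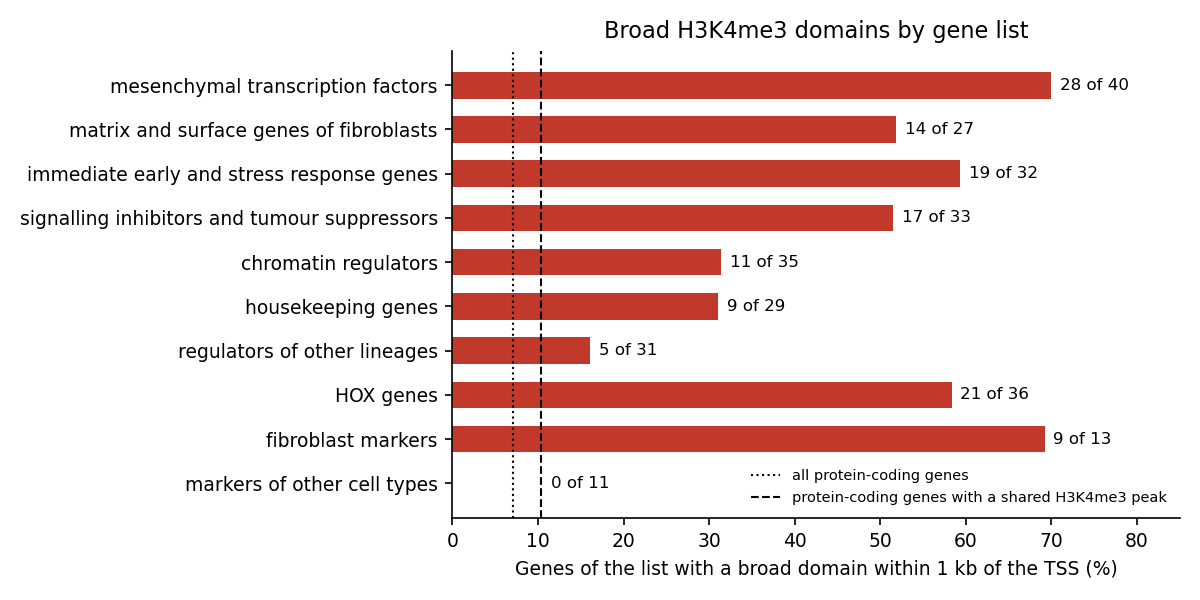
Share of the annotated genes of each list with a broad domain within 1 kb of the TSS (bars, %, with the count at the end of each bar); vertical lines give the share of all protein-coding genes (7.11%, dotted) and of those with a shared H3K4me3 peak (10.3%, dashed). The lists were chosen with earlier results known and are not sorted by share. The highest share was 70.0% for mesenchymal transcription factors and the lowest 0 of 11 for markers of other cell types.

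Broad domains lay mostly downstream of the TSS, as did narrower peaks. Of the 1381 domains 85.1% (exact binomial 95% interval 83.1 to 86.9%) had a gene TSS within 1 kb. The narrower sets were chosen to have a TSS, so they give no share to compare with it. A wider region can also reach a TSS by its width alone. Among the 796 with exactly 1 TSS, the median share of the domain downstream of it was 79.6% in replicate 1 and 80.3% in replicate 2. The median reach was 4853.5 bp downstream and 1285.5 bp upstream in replicate 1, and 5360 and 1394 bp in replicate 2. Peaks of 1 to 3 kb had 70.4% and 70.0% of their width downstream, with a reach of 1447 and 597 bp in replicate 1. Relative to these peaks, the downstream reach was thus longer by more than the upstream reach. At FGF7 the replicate 1 domain ran 13926 bp into the gene and 888 bp upstream, and at PRRX1 16700 and 1617 bp. LTBP4, which encodes a latent TGF-beta binding protein, had 9070 bp downstream and 195 bp upstream. A domain contained the whole of its lead protein-coding gene in 126 cases (11.2%), against 3.06% for 3 to 5 kb peaks and 0.797% for 1 to 3 kb peaks. A wider region can enclose more genes by its width alone. The lead genes had a median length of 27745.5 bp, against 33051 bp at 3 to 5 kb peaks and 25496 bp at 1 to 3 kb peaks.

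The other 206 domains had no gene TSS within 1 kb. A further transcript start of a known gene lay in 120 of them, and 182 overlapped a gene. The widest lay within LMNA, which encodes the nuclear lamins A and C (chr4:93907143-93922181, 15039 and 15139 bp), 5074 bp from the gene's TSS and with 1 other transcript start inside. The FN1 domain was the next (chr15:117720312-117733471). H3K27ac covered 90.2% and 90.4% of the bases of the 206 domains in its replicates 1 and 2, against 89.8% and 90.03% for domains with a TSS.

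**Figure D3:**
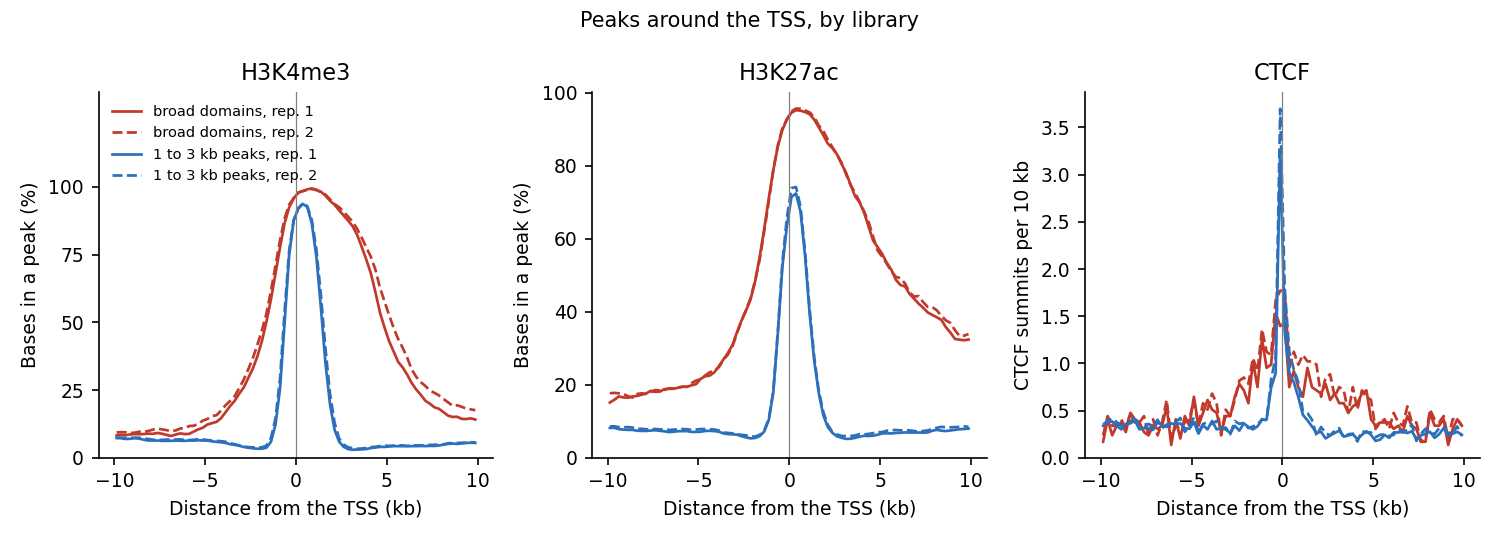
Share of bases in an H3K4me3 or H3K27ac peak (%) and CTCF summits per 10 kb, in 250 bp steps over 10 kb to each side of the lead TSS in the direction of transcription, for 1175 broad domains with a TSS (red) and 6243 peaks of 1 to 3 kb (blue); solid and dashed lines are replicates 1 and 2. The red H3K4me3 and H3K27ac curves fall off slowly on the downstream side, whereas the blue CTCF curves rise to a sharp maximum just before the TSS.

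H3K27ac covered more of the broad domains than of ordinary promoter peaks. Its peaks covered 89.9% of the domains' bases and 90.1% by library, a mean of 89.98 ± 0.135% (SD, n = 2), against 62.3% and 64.0%, or 63.2 ± 1.21%, for the 1 to 3 kb peaks. The difference was 26.8 ± 1.08 percentage points and larger than the spread between libraries, although an exact two-sided sign-flip permutation test over 2 libraries can give no p below the 0.5 found here. Against 3 to 5 kb peaks, which were covered over 79.7% and 80.4%, the difference was 9.93 points. Within 1 kb to each side of the TSS it was 35.9 points against the 1 to 3 kb peaks. These peaks often do not fill that window, as their median upstream reach was 597 bp in replicate 1. Cover of the window was 90.8% and 91.1% at broad domains, 83.5% and 84.0% at 3 to 5 kb peaks and 54.3% and 55.7% at 1 to 3 kb peaks. No H3K27ac peak in either library was found at 19 domains (1.38%), against 2.86% of the 3 to 5 kb peaks and 16.1% of the 1 to 3 kb peaks. A wider region can meet an H3K27ac peak by its width alone. The highest H3K27ac peak of a domain had a median fold enrichment of 24.6 and 28.0, against 19.5 and 22.9 for 3 to 5 kb peaks and 12.6 and 14.6 for 1 to 3 kb peaks. A single H3K27ac peak met 81.8% and 80.4% of the domains, a share near the 80.1% and 82.4% of 1 to 3 kb peaks and below the 89.8% and 89.4% of 3 to 5 kb peaks. Cover rose with width, from 86.1% and 86.5% in the narrowest of 4 equal groups of domains to 94.0% and 94.1% in the widest. H3K27ac often ran on past the domain: at PRRX1 a single peak reached 55599 bp downstream of the TSS in replicate 1 and 34772 bp in replicate 2.

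CpG islands were measured from the genome as stretches of 200 bp windows with at least 50% GC and an observed to expected CpG ratio of at least 0.6. An island of at least 1 kb was touched by 83.1% of the broad domains (1147 of 1381, exact binomial 95% interval 80.97 to 84.9986%), by 78.9% of 3 to 5 kb peaks and by 52.3% of 1 to 3 kb peaks. A wider region can touch more islands by its width alone. The longest island in a domain had a median length of 1610 bp, against 1367 and 1022 bp for the narrower sets. Islands nevertheless filled a smaller part of the region, 36.2% at the median against 45.7% and 56.2%, so that most of a typical domain lay beyond them. Across the 1381 domains Spearman's rho was 0.121 between mean width and the longest island and 0.255 between mean width and the number of bases in islands. Among short motifs counted on both strands of the 200 bp before the TSS, the GC box core GGGCGG was in 62.9% of broad domain promoters, 63.7% of 3 to 5 kb, 56.3% of 1 to 3 kb and 43.8% of all protein-coding promoters, and TATAAA was in 5.94%, 4.38%, 4.51% and 7.66%. CCAAT was in 29.1% of broad domain promoters and 27.6% of all. The ETS-type motif CCGGAAG was in 6.91% of broad domain promoters, 11.4% of 3 to 5 kb, 8.74% of 1 to 3 kb and 7.06% of all promoters. The FGF7 promoter printed above held TATAAA, and those of HOXC9 and PRRX1 held none of the 4 motifs.

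The domains ran from stretches without a CpG island to complete islands, and H3K27ac differed along that range. The 64 domains with under 10% of their bases in islands were covered by H3K27ac over 94.0% and 93.7%, the 430 with 10 to 30% over 94.0% and 93.6%, the 670 with 30 to 60% over 91.6% and 91.8%, and the 217 with 60% or more over 75.4% and 76.8%. The 1 to 3 kb peaks showed the same order at lower levels, with 78.8% and 79.4% under 10% island cover and 45.6% and 48.4% at 60% or more. H3K27ac cover was therefore higher in broad domains than in 1 to 3 kb peaks within each of the 4 ranges of CpG content. A gene TSS lay within 1 kb of 53.1% of the domains under 10% island cover, against 85.6%, 87.0% and 87.6% in the higher ranges. The 1 to 3 kb peaks were all chosen to have one, so the sets compared under 10% also differ in this. The 14 domains of the matrix and surface list had a median island cover of 26.9% and ranged from 0 to 73.8%. COL3A1 and DCN, which encodes the proteoglycan decorin (5556 and 8445 bp), touched no island, COL1A2 had 3.99% of its bases in islands and FGF7 0.446%, and H3K27ac covered COL3A1, DCN and COL1A2 completely in both libraries and FGF7 over 94.1% and 94.7%. In all 20 domains touched no island, and besides COL3A1 and DCN they included HGF, hepatocyte growth factor (6951 and 8213 bp), ANXA1, annexin A1 (7560 and 9188 bp), the cytokine gene IL6 (5200 and 5330 bp), and the microRNA pair MIR199A-1 and MIR214 (8038 and 9805 bp), each with full H3K27ac cover. DCN, HGF, ANXA1, IL6 and the microRNA pair were chosen after their values were seen, and each has a gene TSS. Others of the 20 had no gene TSS within 1 kb. Among these were domains overlapping RUNX1T1 (7285 and 8862 bp) and SOX5 (6231 and 9807 bp), also chosen after their values were seen.

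**Figure D4:**
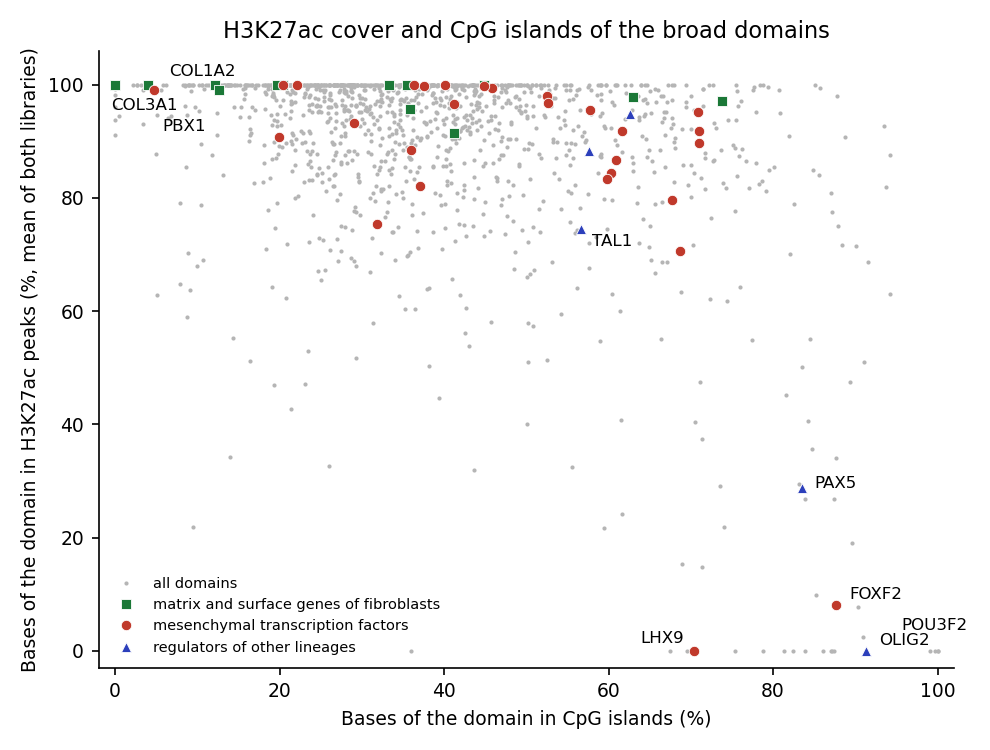
Each point is 1 broad domain, with the share of its bases in CpG islands (x axis, %) and in H3K27ac peaks (y axis, %, mean of both libraries). Matrix and surface genes (green squares) all lie above 90%, whereas the domains without H3K27ac lie, but for 1 at 35.9%, above 60% island cover and include POU3F2, OLIG2 and LHX9.

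The 19 domains without an H3K27ac peak in either library had a median of 86.1% of their bases in islands and median H3K4me3 fold enrichments of 25.7 and 15.3, below the 55.3 and 28.8 of all domains. All 19 tie at 0%, and the first 3 in the order of the genome are described. The neural POU factor gene POU3F2 (chr1:65832235-65837535, 5301 and 5559 bp) had 99.1% of its bases in islands and fold enrichments of 31.1 and 17.1. ONECUT2, a factor of liver and neurons (5703 and 5630 bp), had 75.3%, and the neural co-repressor gene SKOR1 (5012 and 9865 bp) lay wholly within 1 island stretch of 5382 bp. Among the others, named here for their values, were the transcription factor genes LMX1B, LHX1, LHX9, FOXB2, FOXD3, OLIG2, HELT, MAFA, GFI1 and TFAP2C, the neuropeptide gene ADCYAP1, the neuritin gene NRN1 and ASIC4, of the acid-sensing ion channel family, which had the lowest island cover of the 19 at 35.9%. LHX9 was on the list of mesenchymal factors, and FOXF2 of the same list had no H3K27ac in replicate 1 and 16.1% in replicate 2; both are singled out here for their values. Of the 5 domains on the list of other lineage regulators, OLIG2, of oligodendrocytes, had none, PAX5, of B cells (5010 and 5188 bp), had 30% and 27.5%, and TAL1, of blood (8752 and 8443 bp), had 69.9% and 79.1%. The neural and eye factor gene PAX6 (11591 and 11666 bp) and EBF1, a B-cell factor (6776 and 6949 bp), had 93.6% and 96.2% and 87.5% and 89.1%. Broad H3K4me3 at a regulator of another lineage was thus seen both with and without H3K27ac. The widest domains that lay wholly under H3K27ac in both libraries were those of HOXA3, HOXB6 and PRRX1.

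**Figure D5:**
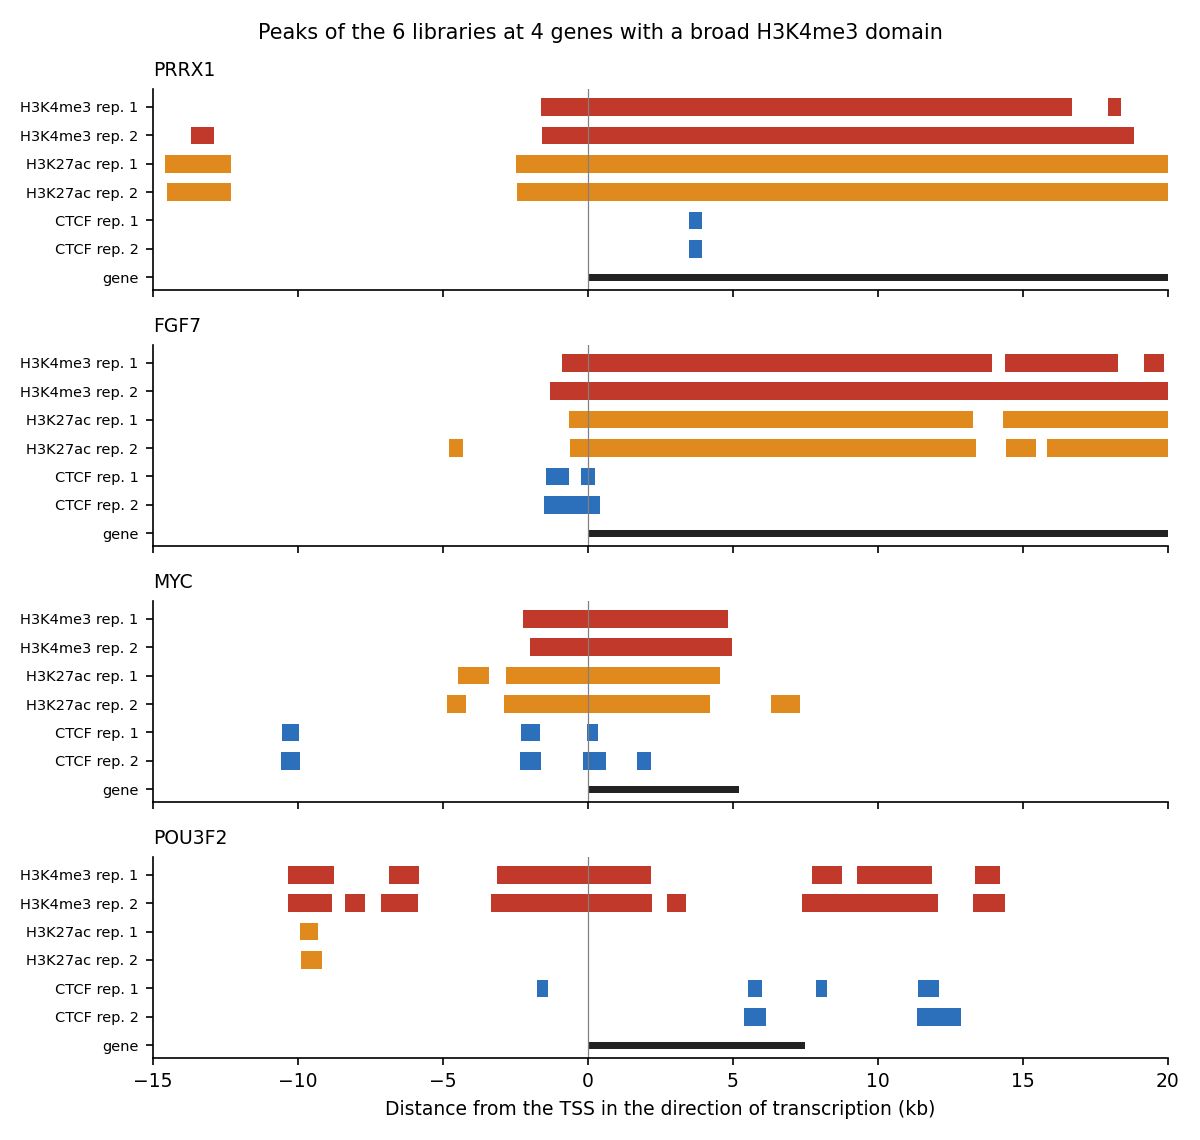
Peaks of the 6 libraries at PRRX1, FGF7, MYC and POU3F2, drawn from 15 kb upstream to 20 kb downstream of the TSS (x axis, kb, in the direction of transcription); bars are peaks cut at the edges of the plot and the thin black bar is the gene. H3K27ac bars lie over the H3K4me3 domain at PRRX1, FGF7 and MYC, and at POU3F2 the only H3K27ac peaks lie over 9 kb upstream of the TSS.

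CTCF was found at many domains but was spread more thinly over their bases. A CTCF summit lay in 47.2% of domains in CTCF replicate 1 and 53.1% in replicate 2, and in 45.8% in both. The shares were 31.0% and 37.9% of 3 to 5 kb peaks and 23.9% and 28.5% of 1 to 3 kb peaks, which offer fewer bases. Per 10 kb there were 0.883 and 1.04 summits, with a mean ± SD of 0.961 ± 0.110 (n = 2), against 1.20 and 1.42, or 1.31 ± 0.158, in the 1 to 3 kb peaks, and 0.167 and 0.185 over the genome. The difference from the 1 to 3 kb peaks was -0.347 ± 0.0479 (exact sign-flip permutation test, p = 0.5, the smallest that 2 libraries allow). The difference was larger than the spread of the differences between the libraries, but it was only -0.0684 against 3 to 5 kb peaks and -0.0270 within 1 kb of the TSS. The CTCF summits were also placed differently. In the 250 bp before the TSS the 1 to 3 kb peaks had 3.26 and 3.70 summits per 10 kb and the broad domains 1.40 and 1.77, while between 4000 and 4250 bp downstream the 1 to 3 kb peaks had 0.199 and 0.173 and the broad domains 0.579 and 0.511. CTCF peaks with summits inside broad domains had a median fold enrichment of 12.9 and 12.1, against 13.8 and 12.1 in 3 to 5 kb peaks, 18.5 and 17.8 in 1 to 3 kb peaks and 19.7 and 19.2 for all CTCF peaks. The HOXC9 domain and that of LTBP4 held 5 summits in each library, and that of BCL6, a transcriptional repressor, 5 and 3. At MYC there were 2 and 3, of which the one near 2 kb upstream had a fold enrichment of 14.5 in replicate 1 and 27.6 in replicate 2. By contrast, COL1A2 and PRRX1, both wider than 14 kb, had 1 summit in each library.

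Most domains stood alone. The median gap between neighbours on a chromosome was 895 kb, and 38 of 1362 neighbouring pairs were closer than 10 kb. At least 4 domains with gaps under 50 kb were found in 5 stretches. HOX clusters made up 2 of them, the HOXA stretch on chromosome 18, where domains filled 75.6% of 85.9 kb, and the HOXD stretch on chromosome 15 with HOXD8 to HOXD11 (53.1% of 59.5 kb). The HOXD9 domain, shared with HOXD10 and HOXD11, was 5923 and 6638 bp wide and had H3K27ac over 63.2% and 46.7%, whereas the HOXD8 domain (5712 and 7168 bp) had 99.7% and 99.5%; both were chosen after their values were seen. In all, 21 of 36 annotated HOX genes lay at 9 broad domains, judged by the replicate 1 peak. They include HOXC4, HOXC5 and HOXC9, which lay outside the replicate 2 partner of their domain. The other 3 stretches were on chromosome 2 around CIRBP, MIDN, STK11 and SBNO2, on chromosome 6 from KMT5C to UBE2S and on chromosome 12 from PHF23 to POLR2A, where 6 domains lay within 191 kb. Within single domains, the most gene starts after the 10 of the HOXC domain were the 7 at HES7, a clock gene of the somites, which were those of HES7, ALOXE3 and 5 tRNA genes (10603 and 11122 bp), and the 6 microRNA genes of the MIR17 cluster (5289 and 5643 bp). H3K27ac covered the HES7 domain over 60.3% and 65.8% and the MIR17 domain over 60.7% and 60.5%, less than the 89.9% and 90.1% of the domains as a whole.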

How the data were processed

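ChIP-seq peaks of H3K4me3, H3K27ac and CTCF in untreated PEFs were analysed, with 2 libraries for each. According to the study's methods and the submitters' processing notes, the authors mapped reads with Bowtie2 to Sscrofa11.1, kept uniquely mapped fragments of MAPQ above 5, took out duplicates, and used MACS2 for narrow peaks of each library at a stated q-value of 0.01. The deposited lists give for each peak a score, a fold enrichment (a ratio of signal to control), and p-values and q-values as −log10. Between 0.0560% and 3.06% of the peaks of a library had a q-value above 0.01, and the lists were analysed as deposited. The deposited score was 10 times the −log10 q-value at nearly all peaks and was not used further. Version numbers were not given in the sources used here, and the control libraries were not analysed here. The lists hold no read counts, so the depth behind a peak is unknown and no counting interval was computed for it.

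Peak ends lay within the chromosome lengths of the Sscrofa11.1 sequence, whose RefSeq annotation (release 106) gave 28077 genes on chromosomes 1 to 18 and X, 19487 of them protein-coding. A TSS belonged to a domain when it was inside the replicate 1 peak or within 1 kb of it, whatever the extent of the replicate 2 peak. The partner of a domain was the replicate 2 peak with the longest overlap, and 3 domains overlapped more than 1 such peak. The lead gene was the protein-coding gene, named ones first, with its TSS nearest to the summit. H3K27ac cover is the share of a region's bases in H3K27ac peaks, and CTCF was counted by summits. Intervals are exact binomial ones of 95% and cover counting only, since regions are not replicates. Replicates are named by their labels, which do not say whether they came from separate cultures, so the spread may be technical. Differences between sets of regions were taken per library and compared by an exact sign-flip permutation test over the 2 libraries.

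The domains, gene lists, tests and alternatives were chosen with earlier results of these data known. Named are the 10 widest domains, 3 each just inside and just outside the threshold, 3 each for the widest without a TSS, the lowest and the full H3K27ac cover, the most CTCF summits and the most genes, and up to 6 domains of each list in its order, with any other gene marked as chosen for its values. A domain that this rule names is not reported here. Counts of domains and lists by CpG content were added after the values were seen. Overlap, cover, TSS and island functions were tested on simulated data against direct counting. Computations used Python 3.11.15, numpy 2.4.6, pandas 2.3.3, scipy 1.17.1 and matplotlib 3.10.9.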

Additional observations from a re-analysis of the deposited data

Results flagged for a closer look

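Outside chromosomes 1 to 18 and X, which the comparisons used, 12 further H3K4me3 domains of at least 5 kb in both replicates were found, a signal in peaks on which nothing above reports. All 12 lay on unplaced scaffolds and 0 on chromosome Y, among 437 replicate 1 peaks there. Their median width was 5510.5 bp in replicate 1 and 7033.5 bp in replicate 2, their median fold enrichments of 57.0 and 29.1 were close to those of the 1381 domains, and 10 of them overlapped an H3K27ac peak in both libraries.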

How the results depend on the processing

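The number of domains was 2664 at a minimum of 4 kb and 256 at 8 kb, and 1475 to 1955 when 1 H3K4me3 replicate was left out. The share of domains with a TSS was 89.2% with a TSS distance of 5 kb and 81.7% with protein-coding genes only. The H3K27ac difference was 24.0 points at 4 kb, 31.1 at 8 kb, 23.9 with peaks within 1 kb joined, 9.93 against 3 to 5 kb peaks, 35.9 within 1 kb of the TSS and 22.4 to 26.2 with a replicate left out. The CTCF difference was -0.0684 summits per 10 kb against 3 to 5 kb peaks, -0.0270 within 1 kb of the TSS and -0.409 to -0.253 with a replicate left out, each from the libraries of the other replicate and its own domains. The share of domains touching a long CpG island was 80.9% at 4 kb and 80.4 to 82.6% with a replicate left out. The downstream share of domains with 1 TSS, 80.0% as the mean of both replicates, was 78.6% at 4 kb, 82.6% at 8 kb, 80.6% with peaks joined and 79.1% with protein-coding genes. No difference changed direction under these alternatives, an overlap of 50% of both peaks or a −log10 q-value of at least 5. Of the widths and H3K27ac covers of 20 named domains, 39 of 40 values moved by no more than the spread between replicates under the stricter q-value and 32 of 40 when peaks were joined. The cause of these shifts was not tested. Each difference between sets of regions was already taken within a library. No paired analysis was possible because no test compared groups of samples, for which a shared replicate number could serve as a block. With peak lists alone, a stretch without a peak cannot be told from one below the threshold at the depth of that library.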

Other observations

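Domains were unevenly spread over the genome, from 0.230 per Mb on chromosome X to 1.51 per Mb on chromosome 12. Of the genes with a shared H3K4me3 peak at the TSS, the share with a domain ran from 5.68% on chromosome X to 13.8% on chromosome 12 and 14.1% on chromosome 18. Another H3K4me3 peak lay within 1 kb of an edge at 20.8% of domains in replicate 1 and 18.03% in replicate 2, against 3.46% and 4.40% of 1 to 3 kb peaks. Of the domains with a TSS, 16.7% held a divergent pair of starts within 1 kb, as did 17.8% of 3 to 5 kb peaks and 7.78% of 1 to 3 kb peaks. The start of a long noncoding RNA was held by 14.2%, 10.6% and 11.7%. A wider region can hold more starts by its width alone. CTCF summits were denser in the outermost 20% of a domain at each end, 1.01 and 1.16 per 10 kb, than in the middle 20%, 0.818 and 0.938, while H3K27ac cover was lower at the ends, 83.5% and 83.7%, than in the middle, 94.9% and 95.3%.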
